A study of Mus musculus with 24 samples.

Results

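The core planar cell polarity (PCP) genes are described here by the RNA levels of *Vangl1*, *Vangl2*, *Prickle1*, *Prickle2*, *Celsr1*, *Celsr2*, *Fzd3*, *Fzd6*, *Dvl2* and *Scrib* in whole mouse lung lobes. The members were found by gene symbol, and 10 of 10 were present among the 23420 genes listed. PCP is the alignment of cells within the plane of a tissue. CELSR cadherins link neighbouring cells, VANGL and PRICKLE proteins gather on one side of a junction and Frizzled and Dishevelled proteins on the other, and the asymmetry is passed on to the actomyosin cytoskeleton. In the lung this system is known for its part in airway branching and in the shape changes of epithelial cells and myofibroblasts as saccules are divided into alveoli, and ROR2 is a receptor through which WNT5A acts on VANGL2. In alveolar type I and II cells and myofibroblasts, however, the authors saw no clear uneven placement of VANGL2.

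Left lobes were taken at postnatal day 2 (P2) and 5 (P5) from mice in which *Vangl2* (*Vangl2* f/f; *Sox9* Cre/+) or *Ror2* (*Ror2* f/f; *Sox9* Cre/+) was deleted. Each mutant group of 3 lungs had its own 3 controls, which are labelled wild type and, for the *Vangl2* comparisons, titled *Vangl1*/2 controls, so that 24 lungs fell into 8 groups. Cre was expressed from the *Sox9* locus, which is active in the distal epithelium but also outside it. As the controls are labelled wild type, the Cre allele and the deletion cannot be told apart in any comparison. The lobes were sequenced whole, so epithelium, mesenchyme, vessels and blood were measured together. Fewer cells of a type therefore cannot be told apart from less RNA per cell. For 2 of the mutant groups, those of *Vangl2* at P5 and of *Ror2* at P2, the genotype given in the labels names the other floxed gene, and the titles were followed instead. Values are the authors' normalized counts (reads on a gene divided by a size factor of the lung within its table of 6), between 13823693 and 21546673 reads fell on genes in a lung, and a level is compared only within its table. One lung stood apart. Control replicate 1 of the P5 *Ror2* comparison was listed at 0 for 100% of well-expressed genes on chromosomes 6 to 9 and X and for 71.5% of those on chromosome 5, and its 8084 genes on these chromosomes were treated as missing, so that *Prickle2*, on chromosome 6, was compared there in 2 control and 3 mutant lungs.

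Marker lists of 14 cell types and states were compared between genotypes, with levels given as sums of normalized counts over a list. In *Vangl2* mutants at P2 5 of 6 neutrophil, 2 of 6 lung epithelium, 1 of 6 alveolar type I and 2 of 6 alveolar type II markers rose, and 5 of 5 proliferation, 1 of 7 mesenchymal and 1 of 3 tested erythroid markers fell (limma, adjusted p under 0.05). Sums there lay above the controls for club cells (230962 to 258207 against 127105 to 152906), type I cells (87951 to 111831 against 63500 to 76295), neutrophils, macrophages, multiciliated cells and mesenchyme, and below them for proliferating (2900 to 5990 against 10604 to 17681) and erythroid cells. Within the mesenchymal list the mean of *Eln* was 58857 in controls and 132838 in mutants. *Acta2* and *Col1a1* were lower (log2 fold changes -0.76 and -0.64), *Tcf21* was higher (0.39), and the list median was -0.016. In *Vangl2* mutants at P5 2 of 6 neutrophil markers rose and no other list had a gene past the threshold. The sums of the neutrophil (8900 to 23052 against 3261 to 4557), macrophage (36691 to 48823 against 15485 to 25481), club (183865 to 244664 against 55339 to 108572), lung epithelium (31147 to 43736 against 25466 to 28844), type I and multiciliated lists lay above the controls. Those of the endothelial (36528 to 55831 against 64471 to 75426) and mesenchymal lists (104362 to 154880 against 175254 to 205182) lay below. In *Ror2* mutants at P2 0 markers passed and no list's sums separated the groups. At an unadjusted p under 0.05 (limma), beside 19.3% of all genes, were 5 of 5 proliferation and 3 of 3 tested erythroid markers. The median log2 fold changes of these lists were -2.087 and -1.903. Of the type I markers 4 of 6 were at that p, with a median of 0.445. In *Ror2* mutants at P5 1 of 6 lung epithelium markers rose, and the sums outside the affected chromosomes lay above the controls for lung epithelium (7763 to 10224 against 6372 to 6957), type I, multiciliated, club and neuroendocrine lists. There 5 of 5 proliferation markers had an unadjusted p under 0.05 (limma), beside 18.4% of all genes, with a median of -0.913. The proliferation sums overlapped narrowly, at 1991 to 5085 against 5083 to 6976. The part of these shifts in the values below was not tested.

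The levels of the members in control lungs were set against each other per length, as reads per kilobase of exon, scaled to the reads on the chromosomes present in all lungs (RPKM). *Prickle1*, a cytoplasmic partner of VANGL, had the highest level in all 4 control groups, from 23.9 ± 1.5 (SD, n = 3) in the P5 *Ror2* controls to 35.7 ± 10 in the P5 *Vangl2* controls, and did not overlap the next gene in any of them. The order depends on the length used, that of all annotated exons merged, 4345 bases for *Prickle1* and 8631 for *Prickle2*. As mean normalized counts *Prickle2* was the higher, at 2011 against 2006 in the P2 *Vangl2* controls and 2257 against 1957 in those at P5. In the *Ror2* controls it was 1726 against 1702 at P2 and 2253 (n = 2) against 1321 at P5. *Fzd6*, *Scrib* and *Prickle2* followed, at between 15.1 and 20.7, in an order that differed from group to group. *Vangl1* came next in each group, from 8.34 ± 3.3 to 12.6 ± 1.0, and then *Dvl2*, from 7.56 ± 0.18 to 9.43 ± 1.1. *Celsr1*, *Celsr2*, *Fzd3* and *Vangl2* had the lowest levels, and *Vangl2*, at 3.0 ± 0.31, 3.67 ± 0.34, 3.14 ± 0.30 and 3.44 ± 0.22 in the P2 and P5 *Vangl2* controls and the P2 and P5 *Ror2* controls, was last in 3 of the 4. *Vangl2* overlapped *Fzd3* in the groups in which it was last, so their order there was within the spread of the lungs.

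Reads were shared little between the members. Of the 50-base words of their annotated transcripts, 0 were common to any pair of members, so that reads of that length which match exactly would not be split between *Vangl1* and *Vangl2* or between *Prickle1* and *Prickle2*. *Dvl2* shared 773 of its 6344 words, in reverse orientation, with *Acadvl*, whose exons overlap it on the opposite strand. Whether the reads were counted by strand is not given in the sources used here, and the values of *Dvl2* are uncertain for that reason.

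The promoters of the deleted *Vangl2* and of *Prickle1*, the member with the smallest p in *Ror2* mutants, are printed. The RefSeq promoters used here hold 2 starts of *Prickle1*, from which its RNA can begin, and 1 of *Vangl2*. GENCODE lists 6 *Vangl2* transcripts and places the start of the gene at 172028444, upstream of the printed window. The printed promoters were read from RefSeq (GRCm38.p6), cover 250 bases before to 50 after the start on the strand of the gene, and show the GC box GGGCGG or its reverse complement CCGCCC in capitals.
*Vangl2*, chr1:172027246-172027545, minus strand: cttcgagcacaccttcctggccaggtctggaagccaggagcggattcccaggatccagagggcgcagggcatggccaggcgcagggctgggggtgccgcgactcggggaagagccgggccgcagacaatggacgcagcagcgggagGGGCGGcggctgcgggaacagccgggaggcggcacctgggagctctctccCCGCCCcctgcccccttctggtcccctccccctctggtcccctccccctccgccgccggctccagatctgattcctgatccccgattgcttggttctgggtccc
*Prickle1*, chr15:93595853-93596152, minus strand: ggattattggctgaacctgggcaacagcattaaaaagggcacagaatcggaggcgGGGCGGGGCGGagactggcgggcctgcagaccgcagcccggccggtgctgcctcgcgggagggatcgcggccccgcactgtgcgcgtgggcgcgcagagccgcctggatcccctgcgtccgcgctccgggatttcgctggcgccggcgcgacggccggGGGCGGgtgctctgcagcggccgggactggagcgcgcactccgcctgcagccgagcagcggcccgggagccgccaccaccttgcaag
*Prickle1*, chr15:93519471-93519770, minus strand: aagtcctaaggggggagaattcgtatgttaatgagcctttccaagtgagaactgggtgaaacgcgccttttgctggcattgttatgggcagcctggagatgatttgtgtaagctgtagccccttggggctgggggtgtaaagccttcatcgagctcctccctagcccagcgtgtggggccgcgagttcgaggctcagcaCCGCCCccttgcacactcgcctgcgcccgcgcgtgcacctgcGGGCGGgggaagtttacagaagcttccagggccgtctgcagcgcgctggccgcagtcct
The GC box occurred 2 times in the *Vangl2* promoter, 3 times in the first and 2 times in the second *Prickle1* promoter, and at least once in 35.7% of all 32851 promoters of this length. GC content was 71.3%, 74.0% and 61.0% against a median of 52.7%. The TATA box TATAAA was found in 0 of the 3 windows and in 13.6% of all promoters, and the word ATCAAAG, bound by TCF/LEF factors of the β-catenin branch of Wnt signalling, in 0 of the 3 and in 3.7% of all, both strands searched. The CCAAT box occurred 1 time, in reverse, in the first *Prickle1* window, and in 37.4% of all promoters. The deposited values count a gene as a whole and do not tell the 2 starts of *Prickle1* apart. Promoters of *Celsr2*, *Prickle2* and *Dvl2* were searched but are not printed. The word ATCAAAG or its reverse complement occurred 1 time among them, in the *Prickle2* window at chr6:92567317-92567616. Promoters of *Vangl1*, *Celsr1*, *Fzd3*, *Fzd6* and *Scrib* were not used here.

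**Figure D1:**
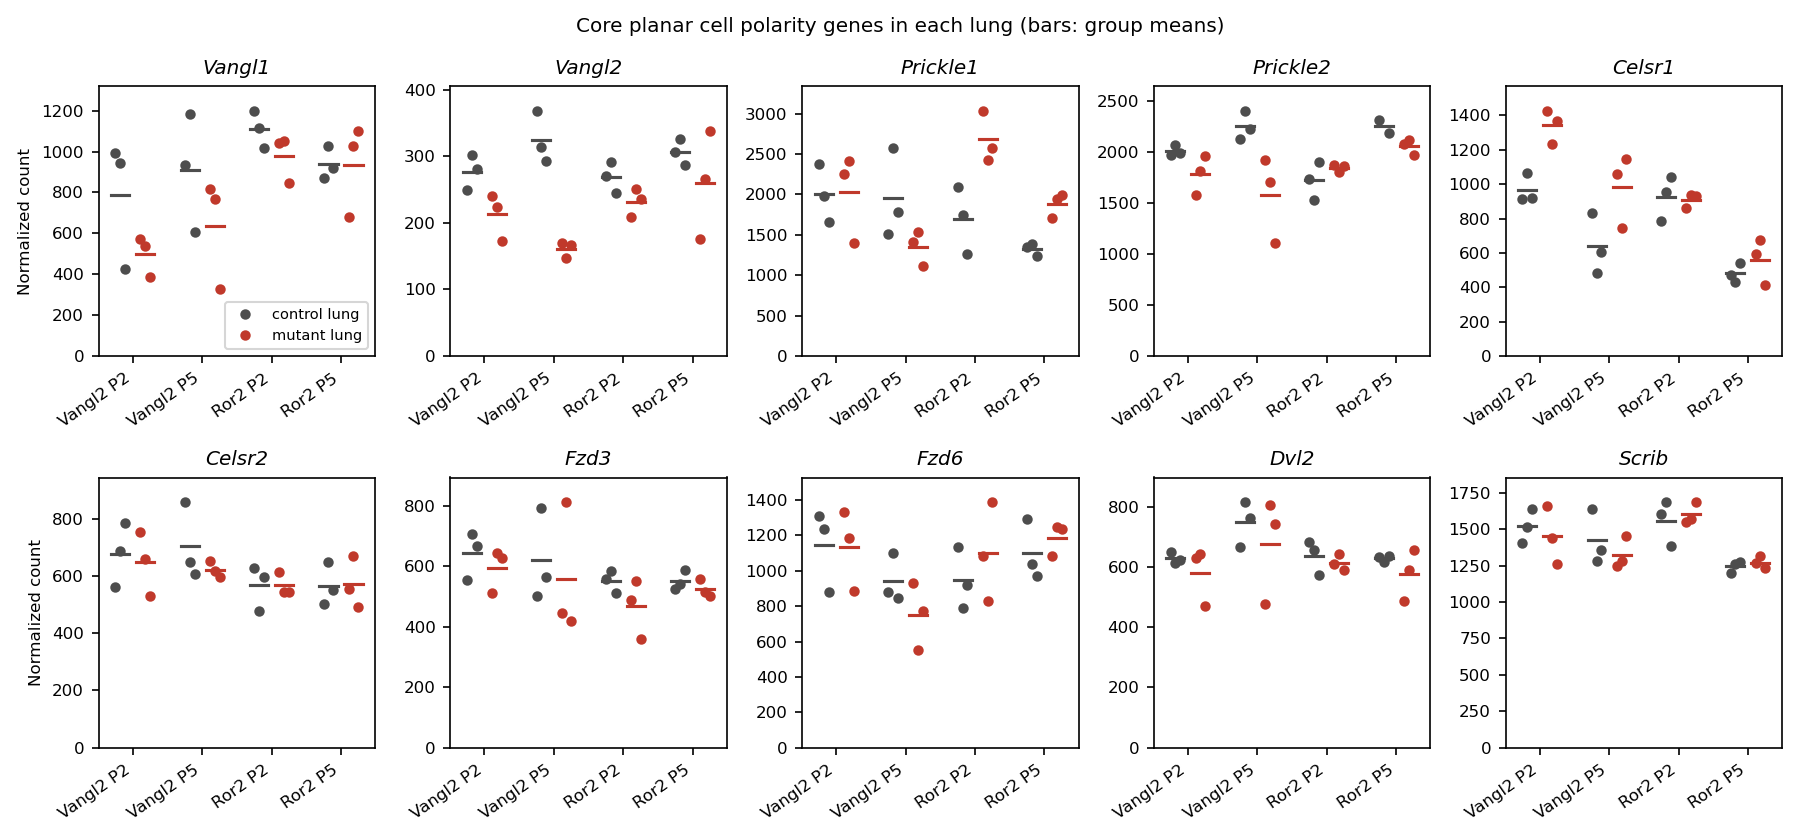
Normalized counts of the 10 members (vertical axes, each from 0) in every lung of the 4 comparisons (horizontal axis), with control lungs in grey, mutant lungs in red and bars at the group means. *Prickle1* lies higher in all *Ror2* mutant lungs than in their controls (2431 to 3038 against 1259 to 2095 at P2), *Celsr1* higher in all *Vangl2* mutant lungs at P2, and *Vangl2* lower in all *Vangl2* mutant lungs.

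The deletions were looked at first. In the P5 *Vangl2* comparison the normalized count of *Vangl2*, which spans chr1:172000960-172028444 (GRCm38, minus strand) and encodes the membrane protein at the centre of the pathway, was 369, 314 and 292 in the controls and 170, 148 and 166 in the mutants. All mutant lungs were low and the groups did not overlap. The log2 fold change was -1.0 ± 0.18 (SE), which just missed the threshold (limma, adjusted p = 0.0604), and the sources give lungs with the same replicate number no common origin, although their deviations went together at this age (r between 0.241 and 0.384 for the 3 pairs). With the replicate number as a block, which raised the calls over all genes from 98 to 1558 (8.95%), *Vangl2* passed (limma, adjusted p = 0.0194), as it did with DESeq2 on the recovered reads (adjusted p = 0.000131), and over 17 alternatives the adjusted p lay between 0.000131 and 0.184. At P2 *Vangl2* was 249, 302 and 281 in the controls and 241, 224 and 173 in the mutants. The groups did not overlap, but the highest mutant was close to the lowest control, and the log2 fold change was -0.39 ± 0.18 (limma, adjusted p = 0.241). The P5 difference exceeded the P2 difference by -0.61 ± 0.24 on the log2 scale, which did not pass over all genes (limma, unadjusted p = 0.0253, adjusted p = 0.577).

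In the *Ror2* comparisons the deleted *Ror2* itself was 451, 581 and 520 in the P2 controls and 479, 349 and 366 in the mutants, with a log2 fold change of -0.38 ± 0.16 (limma, adjusted p = 0.25). At P5 *Ror2* was 526, 367 and 597 in the controls and 361, 440 and 521 in the mutants, with a log2 fold change of -0.16 ± 0.20 (limma, adjusted p = 0.692). The groups overlapped at both ages, so the whole-lobe values do not check the *Ror2* labels. In the *Vangl2* comparisons *Ror2* had log2 fold changes of -0.01 ± 0.12 at P2 and -0.485 ± 0.25 at P5 (limma, adjusted p = 0.968 and 0.348). In the P5 *Vangl2* comparison, where the labels conflict, *Ror2* was 611, 478 and 487 in the controls and 541, 351 and 272.5 in the mutants, and the groups overlapped. *Sox9*, into whose locus Cre was placed, was 83, 155 and 102 in the P5 *Ror2* controls and 54, 41 and 51 in the mutants, a log2 fold change of -1.17 ± 0.27 (limma, adjusted p = 0.123), and also lay below the controls in all lungs of the P5 *Vangl2* and P2 *Ror2* mutants but not of the P2 *Vangl2* mutants. *Vangl2* had log2 fold changes of -0.21 ± 0.14 at P2 and -0.28 ± 0.22 at P5 in *Ror2* mutants (limma, adjusted p = 0.404 and 0.510). At P5 its values were 306, 326 and 287 in the controls and 177, 265 and 338 in the mutants, which spread to both sides of the controls.

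Across the members, 0 of 10 passed the threshold in any of the 4 comparisons with limma. Over all genes tested the percentages called were 3.59% in *Vangl2* mutants at P2, 0.563% in *Vangl2* mutants at P5, 0% in *Ror2* mutants at P2 and 0.128% in *Ror2* mutants at P5. In *Ror2* mutants at P2, where limma called 0 genes, 3380 genes had an unadjusted p under 0.05, edgeR called 0 and DESeq2 794. At an unadjusted p under 0.05 the members numbered 1, 4, 1 and 1 in the same order, beside 22.5%, 18.8%, 19.3% and 18.4% of all genes tested. The 4 of 10 in *Vangl2* mutants at P5 were above that share and 1 of 10 was below it. Those 4 were *Prickle1*, *Prickle2* and the deleted *Vangl2*, which were lower, and *Celsr1*, which was higher. The fall of *Vangl2* there follows from the deletion, so the 4 are not a result about the members alone. EdgeR's quasi-likelihood test on the recovered reads called 0 of 10 in each comparison, beside 3.67%, 0.396%, 0% and 0% of all genes. DESeq2 called 1 of 10 in each, beside 11.5%, 7.38%, 4.53% and 6.95% of all genes, which is near the background. These were *Celsr1* in *Vangl2* mutants at P2, *Vangl2* in *Vangl2* mutants at P5 and *Prickle1* in *Ror2* mutants at both ages. Mutant and control lungs did not overlap for 3, 2, 1 and 2 members, beside 29.6%, 25.7%, 25.7% and 29.9% of all genes tested, so these counts were near the background. With 3 lungs against 3, or 2 against 3 for *Prickle2* in the P5 *Ror2* comparison, an exact two-sided permutation test cannot go below p = 0.1, and every member whose groups did not overlap had that value. Nothing in the labels says how the animals of a group were related.

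**Figure D2:**
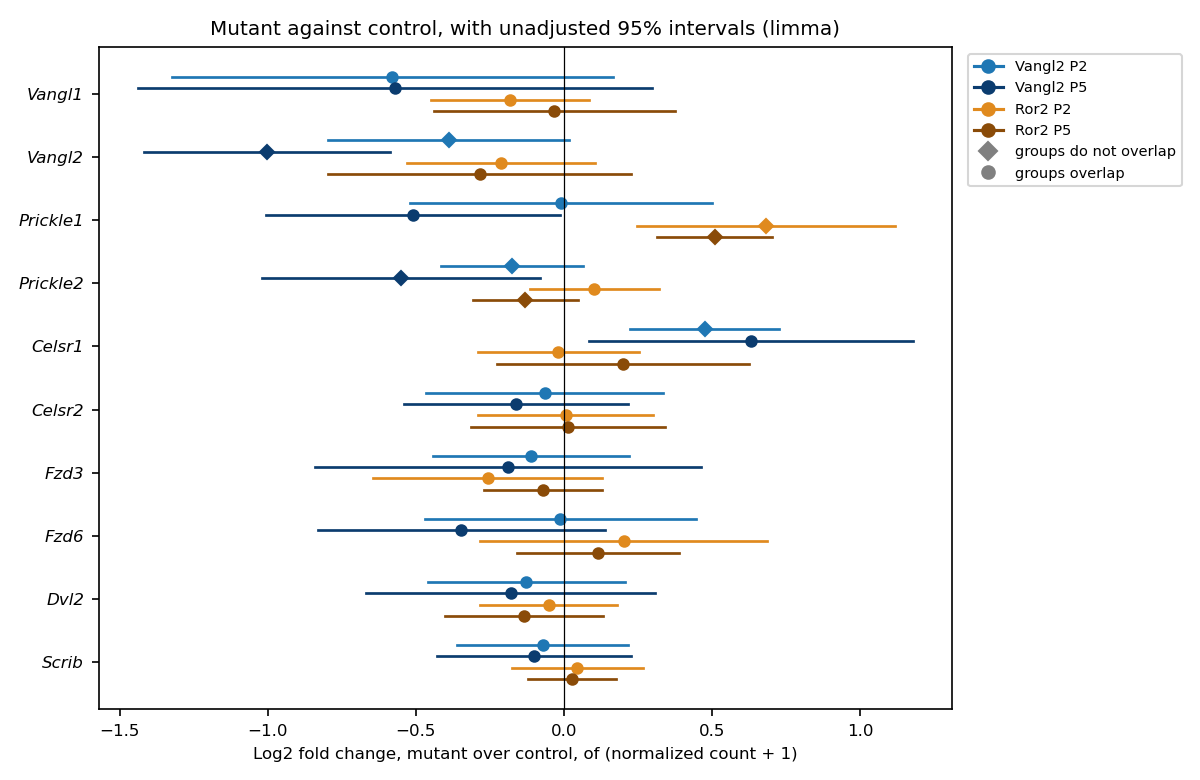
Log2 fold change of each member, mutant over control, on the log2(normalized count + 1) scale (horizontal axis) in the 4 comparisons (colours), with unadjusted 95% intervals from limma; diamonds mark members whose mutant and control lungs do not overlap. *Prickle1* lies to the right in both *Ror2* comparisons and to the left in *Vangl2* mutants at P5, and *Celsr1* lies to the right in both *Vangl2* comparisons.

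*Prickle1*, at chr15:93499114-93595891, had the smallest p of the members in both *Ror2* comparisons. At P2 its normalized count was 2095, 1751 and 1259 in the controls and 3038, 2431 and 2578 in the mutants. At P5 it was 1345, 1385 and 1233 in the controls and 1708, 1941 and 1994 in the mutants. All mutant lungs were high at both ages, and the P5 lungs of a group lay close together. The log2 fold changes were 0.68 ± 0.19 and 0.51 ± 0.083 (limma, adjusted p = 0.203 and 0.0808), with unadjusted 95% intervals of 0.25 to 1.12 and 0.32 to 0.70. With DESeq2 the adjusted p was 0.0300 at P2 and 6.18e-06 at P5, and over all alternatives the limma, edgeR and DESeq2 adjusted p ranged from 0.0300 to 0.530 at P2 and from 6.18e-06 to 0.658 at P5. At P5 the limma test passed without mutant replicate 1 (adjusted p = 0.0345) or mutant replicate 3 (adjusted p = 0.0392). Without control replicate 1, the lung that lacks reads, the log2 fold change of *Prickle1* was 0.52 (limma, adjusted p = 0.169), and the highest adjusted p came from a fit with sex as a factor. That fit also dropped this lung, whose sex was not determined, and rested on 1 female and 1 male control against 3 male mutants.

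In *Vangl2* mutants the values of *Prickle1* did not lie above the controls. At P2 it was 2381, 1980 and 1656 in the controls and 2256, 2413 and 1405 in the mutants, which overlapped throughout (log2 fold change -0.01 ± 0.22; limma, adjusted p = 0.985; 0.0006 with edgeR and 0.0137 with DESeq2, so no direction is given). At P5 it was 1513, 2572 and 1786 in the controls and 1407, 1531 and 1118 in the mutants, a log2 fold change of -0.51 ± 0.22 (limma, adjusted p = 0.255) with 1 mutant lung above the lowest control. Between the 2 deletions at P5 the difference in log2 fold change was -1.02 ± 0.25, which had an unadjusted p of 0.00149 and did not pass over all genes (limma, adjusted p = 0.513). Of the differences between comparisons, limma called 0% of genes for *Vangl2* mutants at P5 minus P2, 0% for *Ror2* mutants at P5 minus P2, 0% for *Vangl2* minus *Ror2* mutants at P2 and 0.0118% for the same at P5, and 0 of 10 members in each. Among all genes 1442, 1615, 788 and 798 had an unadjusted p under 0.05 in these tests.

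*Prickle2* is a second Prickle homologue. In *Vangl2* mutants at P5 it was 2134, 2409 and 2229 in the controls and 1919, 1707 and 1113 in the mutants. All mutant lungs were low, with mutant replicate 3 far below the others, and the log2 fold change was -0.55 ± 0.20 (limma, adjusted p = 0.208). In *Vangl2* mutants at P2 it was 1973, 2073 and 1988 in the controls and 1580, 1817 and 1965 in the mutants, again without overlap but by a narrow gap (log2 fold change -0.18 ± 0.10; limma, adjusted p = 0.358). In *Ror2* mutants it was 1740, 1532 and 1907 against 1873, 1804 and 1861 at P2, and 2317 and 2189 in the usable controls against 2080, 2124 and 1972 at P5. The log2 fold changes were 0.10 ± 0.093 and -0.13 ± 0.074 (limma, adjusted p = 0.553 and 0.387).

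*Celsr1*, at chr15:85898929-86033777, encodes one of the atypical cadherins that hold the PCP complexes of adjacent cells together. In *Vangl2* mutants at P2 it was 915, 1068 and 919 in the controls and 1428, 1234 and 1369 in the mutants. All mutant lungs were high, and the log2 fold change of 0.47 ± 0.11 had an unadjusted 95% interval of 0.22 to 0.73 (limma, adjusted p = 0.0562). In the same mutant lungs the club and type I marker sums given above also lay above the controls, and the lung epithelium list had a median log2 fold change of 0.499. Their part in the level of *Celsr1* was not tested. *Celsr1* passed with DESeq2 (adjusted p = 0.00574) and without mutant replicate 3 (limma, adjusted p = 0.0451), and over the alternatives the adjusted p reached 0.208. In *Vangl2* mutants at P5 it was 830, 482 and 606 in the controls and 1058, 748 and 1144 in the mutants. One control lay above the lowest mutant, and the log2 fold change of 0.63 ± 0.24 did not pass (limma, adjusted p = 0.211), but the replicate block, which compares lungs of the same number, gave an adjusted p of 0.0362 with limma, within a range of 0.0362 to 0.473. Each mutant lung exceeded the control of its own number.

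In *Ror2* mutants *Celsr1* was 787, 952 and 1040 against 862, 937 and 929 at P2, with a log2 fold change of -0.02 ± 0.12, and 474, 430 and 539 against 595, 678 and 412 at P5, with 0.20 ± 0.18 (limma, adjusted p = 0.942 and 0.578). At P2 the log2 fold change in *Vangl2* mutants exceeded that in *Ror2* mutants by 0.49 ± 0.16 (limma, unadjusted p = 0.0092, adjusted p = 0.946). Across all 24 lungs, after the mean of the lung's own group was removed, Pearson's r of *Celsr1* with the 14 marker lists ranged from -0.252 (mesenchyme) to 0.596 (club cells), with 0.493 for the neuroendocrine, 0.455 for the lung epithelium, 0.443 for the cardiac muscle and -0.139 for the alveolar type I list. These values are a description over lungs that share their tables.

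*Celsr2* stayed within 0.17 of no change on the log2 scale in all 4 comparisons, with log2 fold changes of -0.07 ± 0.17, -0.16 ± 0.16, 0.01 ± 0.13 and 0.01 ± 0.14 in *Vangl2* mutants at P2 and P5 and *Ror2* mutants at P2 and P5. Its unadjusted 95% intervals reached from -0.54 to 0.34, so that changes of that size could not be told from none. The signs in *Vangl2* mutants at P2 and in both *Ror2* comparisons turned when a lung was left out. The P5 *Vangl2* controls were 858, 648 and 605 and the mutants 652, 618 and 595.

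*Vangl1*, the second Van Gogh homologue, varied widely between lungs of the same group in the *Vangl2* comparisons. In the P2 *Vangl2* comparison it was 992, 946 and 426 in the controls and 571, 539 and 389 in the mutants. In the P5 *Vangl2* comparison it was 935, 1185 and 607 in the controls and 815, 767 and 327 in the mutants. The third lung was the lowest of its group in all of these 4 groups. The log2 fold changes were -0.58 ± 0.32 and -0.57 ± 0.38 (limma, adjusted p = 0.329 and 0.459). Single lungs moved these values. Leaving out the third control lung gave -0.97 at P2 and -0.84 at P5, the first control lung -0.36 at P2, and the third mutant lung -0.15 at P5, which were the extremes over all lungs left out. The SD of *Vangl1* within groups, on the log2 scale, was 0.527 at P2 and 0.624 at P5, against medians of 0.170 and 0.221 over genes with a mean level above 100, which placed it at the 95.4th and 95.6th percentile of 12100 and 11836 genes. In the *Ror2* tables *Vangl1* lay at 848 to 1200 at P2 and 680 to 1102 at P5, with log2 fold changes of -0.18 ± 0.11 and -0.03 ± 0.18 (limma, adjusted p = 0.391 and 0.936) and SDs of 0.151 and 0.280, at the 51.8th and 88.3rd percentile.

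The Frizzled receptors did not pass in any comparison. *Fzd3* had log2 fold changes of -0.11 ± 0.14 and -0.19 ± 0.28 in *Vangl2* mutants at P2 and P5 and of -0.26 ± 0.16 and -0.07 ± 0.086 in *Ror2* mutants (limma, adjusted p between 0.405 and 0.770). At P5 its *Vangl2* mutant lungs were 445, 813 and 419 and their controls 503, 794 and 565, with the second lung of both groups far above the others. *Fzd6* had log2 fold changes of -0.01 ± 0.20, -0.35 ± 0.21, 0.20 ± 0.21 and 0.11 ± 0.12 in the same order (limma, adjusted p between 0.417 and 0.980). Its P5 *Vangl2* controls were 879, 1098 and 847 and the mutants 930, 551 and 774, and its P2 *Ror2* controls were 1134, 789 and 922 and the mutants 1085, 832 and 1389. All of these groups overlapped.

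*Dvl2*, which encodes a cytoplasmic Dishevelled adaptor, and *Scrib*, which encodes a basolateral scaffold that binds VANGL2, had small differences between genotypes, and their groups overlapped in all 4 comparisons. *Dvl2* had log2 fold changes of -0.13 ± 0.14, -0.18 ± 0.21, -0.05 ± 0.099 and -0.13 ± 0.11 (limma, adjusted p between 0.547 and 0.793). *Scrib* had log2 fold changes of -0.07 ± 0.12, -0.10 ± 0.14, 0.05 ± 0.094 and 0.03 ± 0.064 (limma, adjusted p between 0.755 and 0.834). In the P5 *Ror2* comparison *Scrib* was 1200, 1260 and 1274 in the controls and 1264, 1315 and 1230 in the mutants, and its unadjusted 95% interval of -0.12 to 0.18 was the narrowest of the members there. The signs of *Scrib* turned in all comparisons under 1 or more alternatives.

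The median and the sum of the members were lower in *Vangl2* mutants at P5, with the deleted *Vangl2* counted among them. The median log2 fold change of the 10 members was -0.269, beside 0.003 over all genes, and the summed normalized count of the members lay between 7851 and 9117 in mutants and between 9655 and 11599 in controls. By group means the largest falls were those of *Prickle2* (2257 to 1579) and *Prickle1* (1957 to 1352). *Scrib*, *Celsr2*, *Dvl2* and *Fzd3* had log2 fold changes between -0.19 and -0.10. Of the 10, 9 had a negative and 1, *Celsr1*, a positive log2 fold change at both ages of the *Vangl2* comparison with limma. Several of these lay near 0, such as *Prickle1* and *Fzd6* at P2 (-0.01 each). Signs turned under 1 or more alternatives for *Celsr2*, *Dvl2*, *Fzd6*, *Prickle1* and *Scrib* at P2 and for *Dvl2*, *Fzd3* and *Scrib* at P5. At P2 the median was -0.092 and the sums overlapped. In *Ror2* mutants the medians were -0.006 and -0.009, with 5 members of either sign at each age. The endothelial and mesenchymal marker sums that lay lower in the same P5 *Vangl2* mutant lungs are given above, and their part in the group's level was not tested.

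Of the 55 other genes of the pathway that the tables list, in 7 lists, 0 passed the threshold in any comparison (limma), so the 2 genes of each list with the smallest unadjusted p over the 4 comparisons are named. Among ligands and co-receptors, *Wnt11* was 555, 594 and 601 in the P2 *Ror2* controls and 410, 444 and 355 in the mutants (log2 fold change -0.54 ± 0.11; limma, adjusted p = 0.203). The receptor *Ror1* was 588, 556 and 659 in the P5 *Vangl2* controls and 408, 312 and 242 in the mutants (log2 fold change -0.93 ± 0.21; limma, adjusted p = 0.0900). The medians of this Wnt5a-Ror list of 8 genes were -0.245, -0.519, -0.260 and -0.222 in *Vangl2* mutants at P2 and P5 and *Ror2* mutants at P2 and P5, with 2, 2, 3 and 0 genes at an unadjusted p under 0.05, beside the 22.5%, 18.8%, 19.3% and 18.4% of all genes and medians over all genes of 0.001, 0.003, -0.006 and 0.004. The list holds the deleted *Ror2*, which is 1 of the 3 genes in *Ror2* mutants at P2. Without *Ror2*, an alternative chosen after seeing the data, the medians of the 7 genes were -0.252, -0.553, -0.216 and -0.284, with 2, 2, 2 and 0 genes at that p. Its summed level without *Ror2* lay below the controls without overlap in *Vangl2* mutants at P5, at 8419 to 15175 against 15613 to 16918, and in *Ror2* mutants at P2, at 11145 to 12349 against 12819 to 13512. The sums of the modulator (10731 to 13174 against 13245 to 14521) and Scribble lists (13619 to 16873 against 17724 to 19284) also lay below in *Vangl2* mutants at P5, as did Fat-Dachsous in *Vangl2* mutants at P2 (10375 to 12066 against 12977 to 14435) and the cytoskeletal list in *Ror2* mutants at P2 (70941 to 73090 against 73124 to 80226) and P5 (48829 to 52796 against 54860 to 56868). The ciliary sums lay above the controls in *Vangl2* mutants at both ages and in *Ror2* mutants at P5. Wnt5a-Ror was the list whose median was below 0 by over 0.2 in all 4 comparisons.

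Among the 8 other core components, 1, 3, 3 and 4 had an unadjusted p under 0.05 in the same order of comparisons, beside the same shares of all genes, and in each of the other 6 lists that number lay between 0 and 4. *Dvl3*, a Dishevelled, was 1687, 1890 and 1765 in the P5 *Vangl2* controls and 1183, 1332 and 1128 in the mutants (log2 fold change -0.55 ± 0.13; limma, adjusted p = 0.0909). *Celsr3*, the third CELSR cadherin, was low, at 13, 16 and 10 in the same controls and 50, 27 and 45 in the mutants (log2 fold change 1.54 ± 0.39; limma, adjusted p = 0.111). Of the modulators, the Dishevelled-binding *Dact1* was 820, 785 and 835 in these controls and 572, 486 and 386 in the mutants (log2 fold change -0.77 ± 0.17; limma, adjusted p = 0.0881). All 3 genes separated the P5 *Vangl2* mutants from their controls without passing the threshold. Of all genes tested 25.7% did so in this comparison, and the 3 were named for their small p, so their separation adds nothing to it. *Gipc1*, a PDZ adaptor on one of the affected chromosomes, was 2070 and 1932 in the 2 usable P5 *Ror2* controls and 1438, 1590 and 1676 in the mutants (log2 fold change -0.35 ± 0.090; limma, adjusted p = 0.151).

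*Llgl2*, a basolateral polarity gene of epithelia, was higher in every *Vangl2* mutant lung at P2, at 2526, 1835 and 1818 against 1422, 1157 and 1219 (log2 fold change 0.69 ± 0.15; limma, adjusted p = 0.0516). It was also higher in every *Ror2* mutant lung, with log2 fold changes of 0.65 ± 0.19 at P2 and 0.32 ± 0.090 at P5 (limma, adjusted p = 0.206 and 0.161). In *Vangl2* mutants at P5 the *Llgl2* values overlapped the controls (log2 fold change 0.18 ± 0.21; limma, adjusted p = 0.708). Its partner in the list, the RAC exchange factor *Arhgef7*, had -0.44 ± 0.15 in *Vangl2* mutants at P5 (limma, adjusted p = 0.189). Of the cytoskeletal genes, *Myl9*, a myosin light chain of contractile cells, was 4056, 3517 and 3802 in the P2 *Vangl2* controls and 2575, 2637 and 3256 in the mutants (log2 fold change -0.43 ± 0.12; limma, adjusted p = 0.0874). *Myl9* had -0.66 ± 0.19 and the actin-severing *Cfl1* -0.35 ± 0.11 in *Ror2* mutants at P2 (limma, adjusted p = 0.203 and 0.208). No lung overlapped between groups for either, beside 25.7% of all genes tested in that comparison, and both were named for their small p.

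The Fat-Dachsous system, a second planar polarity pathway built on giant cadherins, had *Fat3* at 1353, 1461 and 1429 in the P2 *Vangl2* controls and at 200, 657 and 889 in the mutants (log2 fold change -1.53 ± 0.48; limma, adjusted p = 0.119). At P5 *Fat3* had -0.72 ± 0.18 (limma, adjusted p = 0.105). *Dchs1*, which encodes the Dachsous ligand of FAT4, was 2356, 2310 and 2430 in the P2 controls and 1341, 1871 and 1957 in the mutants (log2 fold change -0.48 ± 0.15; limma, adjusted p = 0.116). The ciliary effectors, which act downstream of PCP at the base of the cilium, had 0 of 5 genes at an unadjusted p under 0.05 in each comparison. The smallest p among them belonged to *Fuz* in *Ror2* mutants at P2 (log2 fold change 0.21 ± 0.099; limma, adjusted p = 0.297) and *Ift88* in *Ror2* mutants at P5 (0.23 ± 0.12; limma, adjusted p = 0.345).

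**Figure D3:**
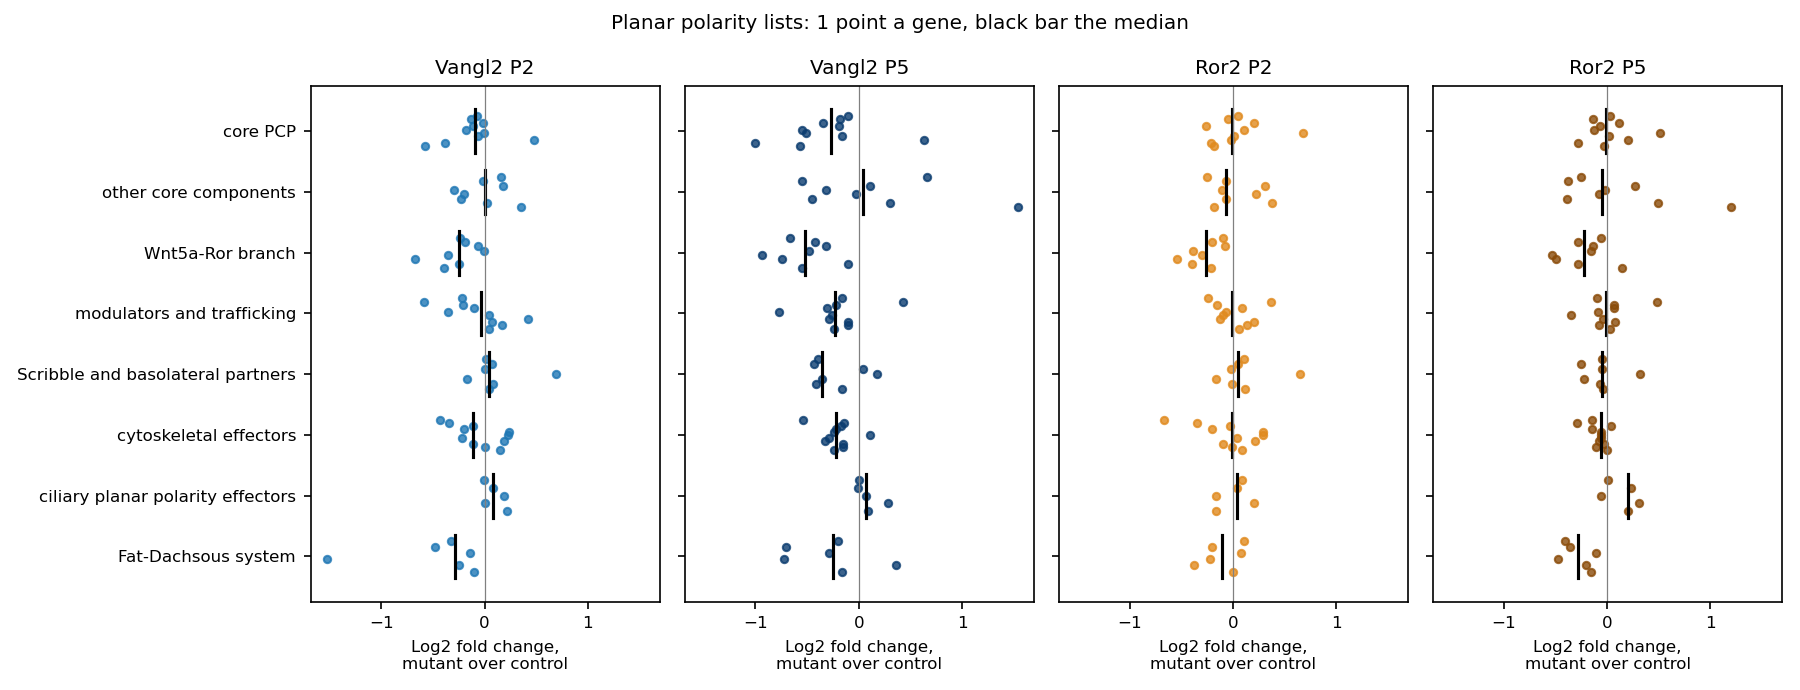
Log2 fold changes, mutant over control (horizontal axes), of the core PCP members and of 7 lists of other planar polarity genes (rows) in the 4 comparisons, 1 point a gene with the list median as a black bar. The Wnt5a-Ror medians lie left of 0 in all 4 panels (-0.519 in *Vangl2* mutants at P5), and the core PCP median lies left of 0 mainly in *Vangl2* mutants at P5 (-0.269).

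The members did not vary together from lung to lung. On log2 values with the mean of the lung's own group removed, Pearson's r of the 45 pairs had a median of 0.076 and reached from -0.653 to 0.651 over 24 lungs, or 23 for pairs with *Prickle2*. Only 2 pairs exceeded 0.5, *Vangl1* with *Prickle1* at 0.651 (Spearman's rho 0.726, and r = 0.612 without the 2 lungs farthest from the median) and *Celsr2* with *Scrib* at 0.525 (rho 0.478, r = 0.422), while 4 pairs were under -0.5. The lowest values were those of *Prickle2* with *Scrib* at -0.653 and *Celsr1* with *Prickle1* at -0.600, a pair whose log2 fold changes also had opposite signs in *Vangl2* mutants at P5. The lungs share tables, size factors and cell makeup, and these values are a description.

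**Figure D4:**
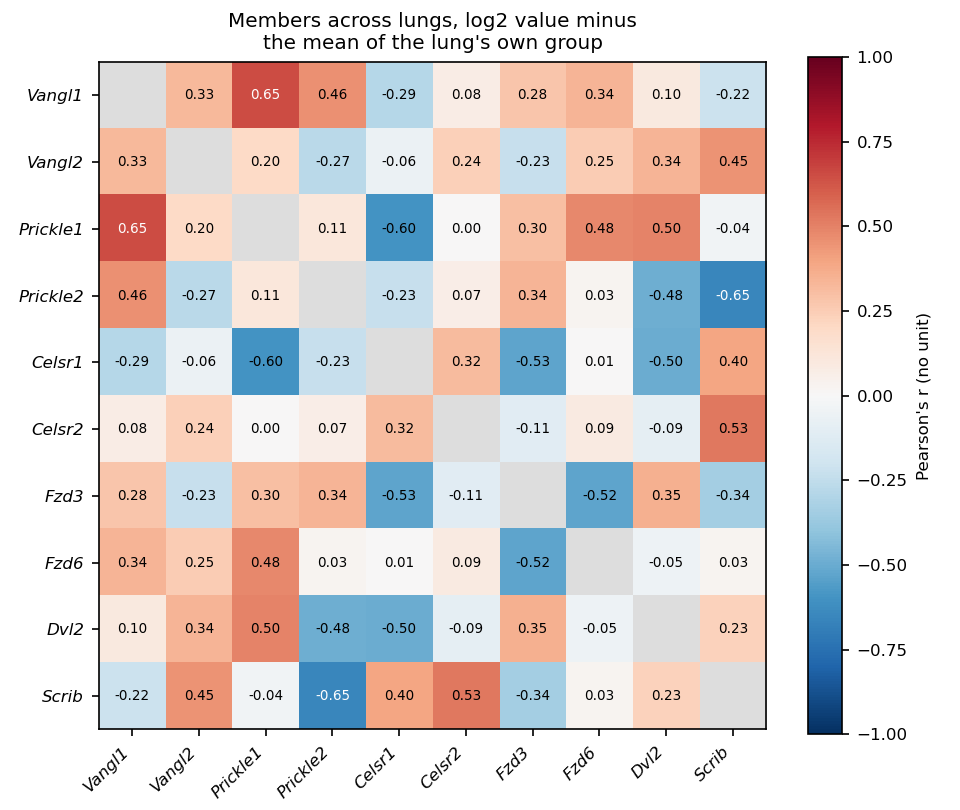
Pearson's r (colour and number) between members over 24 lungs, or 23 with *Prickle2*, on log2 values minus the mean of the lung's own group, with rows and columns for the 10 members. *Vangl1* and *Prickle1* are the pair with the highest value (0.651) and *Prickle2* and *Scrib* the pair with the lowest (-0.653).

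Each member was more like some gene outside the group than like any other member. Among 16722 genes tested in all tables, the gene with the highest r was *Arhgef15*, an exchange factor known from endothelial cells, for *Prickle1* (0.921), *Tlr5* for *Vangl1* (0.889), *Rbm15b* for *Vangl2* (0.863) and *Galnt4* for *Prickle2* (0.897). For *Celsr1* it was *Itgb4* (0.851), an integrin of epithelial cells, and for *Celsr2* *Itprip* (0.786). For *Fzd3* it was *Zbtb41* (0.943), for *Fzd6* *Ets1* (0.850), for *Dvl2* *Zcchc8* (0.925) and for *Scrib* *Cpsf1* (0.869). The highest of 16722 values is large by its choice, and the other members are few, so the comparison could hardly come out otherwise. It gives no result about the members, and no test was made of it.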

How the data were processed

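RNA of left lobes from 24 mice (8 groups of 3) was extracted by the authors (TRIzol, then RNeasy columns), and libraries were run on HiSeq sequencers. The submitters' processing notes name mm10 and DESeq2, and the aligner, read counter and their versions are not given in the sources used here. The deposited signal values are read counts per gene divided by a size factor of each lung within its table, by the authors, who did not pool replicates. The tables also hold the authors' fold changes and p-values, which were not used. The number of unassigned sample columns was 0. Whole reads were recovered from the steps between values, with 100% of values within 0.02 of a whole read in all 24 lungs. Replicates differed beyond counting noise (chi-square per degree of freedom from 7.59 to 91.2), so each lung was counted as 1 sample.

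In R (version 4.3.3), limma (version 3.58.1) was run, with eBayes and a mean-variance trend, on log2(normalized count + 1) of the 6 lungs of a table, over genes with a value of at least 1 in at least 3 lungs. Fold changes are on that scale and understate those of low genes. Adjusted p-values are Benjamini-Hochberg values across every gene in the fit, called under 0.05, and intervals are 95% and unadjusted. Differences between comparisons were tested in 1 fit over 12 lungs of 2 tables. Alternatives were other pseudocounts, filters and scalings, limma without trend, edgeR (version 4.0.16) and DESeq2 (version 1.42.0) on the recovered reads, the replicate number as a block, sex read from *Xist* and *Ddx3y* (without control replicate 1 of the P5 *Ror2* table, where it was not determined), and each lung left out. The limma and edgeR fits were tested on simulated data. Replicate numbers carried deviations in the P5 *Vangl2* table (r between 0.241 and 0.384, each lung closest to its own number) and not in every pair of the others, and the labels do not say what a number shares. Gene positions, exon lengths and transcripts are those of GENCODE vM21 (GRCm38), and RPKM was computed here from exon lengths. The 10 members are all named, and of the other pathway lists the genes past the threshold or else the 2 with the smallest p. Members and lists were chosen with earlier results of these data known, and lists were also used by an earlier analysis of these tables. In the lists, 2 pathway genes and 4 markers were not matched. In the P5 *Ror2* table list sums cover the genes outside chromosomes 5 to 9 and X.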

Additional observations from a re-analysis of the deposited data

How the results depend on the processing

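The count of members past the threshold, 0 in each comparison, was 1 in each with DESeq2 on the recovered reads, and 2 in *Vangl2* mutants at P5 with the replicate block (*Vangl2* and *Celsr1*), where the calls over all genes went from 98 to 1558. With a lung left out it lay between 0 and 1 in *Vangl2* mutants at P2 and in *Ror2* mutants at P5, and the cause was not tested. The block changed no other call of a member, and same-numbered lungs did not deviate together in every pair of the other 3 tables. Control replicate 1 of the P5 *Ror2* table, taken as deposited, turned the log2 fold change of *Prickle2* to 3.58, since that lung is listed at 0 there. Directions near 0 turned as follows. For *Prickle1* in *Vangl2* mutants at P2 edgeR gave 0.0006 and DESeq2 0.0137. With sex as a factor *Celsr2* and *Scrib* in *Vangl2* mutants at P2 had 0.0573 and 0.0060, *Dvl2* in *Vangl2* mutants at P5 had 0.0519 and *Scrib* in *Ror2* mutants at P5 had -0.0055. In *Ror2* mutants at P2 *Celsr2* had -0.0375 with equal totals, -0.0062 with edgeR and -0.0005 with DESeq2, and in *Ror2* mutants at P5 *Vangl1* had 0.0009 with equal totals. With each lung left out in turn, log2 fold changes in *Ror2* mutants at P2 ranged from -0.1316 to 0.0697 for *Celsr1*, from -0.1100 to 0.0830 for *Celsr2* and from -0.0380 to 0.1059 for *Scrib*. With each lung left out in turn, log2 fold changes in *Ror2* mutants at P5 ranged from -0.1062 to 0.1175 for *Celsr2* and from -0.1655 to 0.1827 for *Vangl1*. With each lung left out in turn, log2 fold changes in *Vangl2* mutants at P2 ranged from -0.1948 to 0.0709 for *Celsr2*, from -0.2092 to 0.0184 for *Dvl2*, from -0.1886 to 0.1578 for *Fzd6*, from -0.1562 to 0.2340 for *Prickle1* and from -0.1734 to 0.0275 for *Scrib*. With each lung left out in turn, log2 fold changes in *Vangl2* mutants at P5 ranged from -0.3260 to 0.0519 for *Dvl2*, from -0.4936 to 0.0007 for *Fzd3* and from -0.1727 to 0.0044 for *Scrib*. Over all values recomputed, 707 kept their direction and their side of the threshold, 34 changed direction and 9 came to pass the threshold. The depth of 13823693 reads or more on genes left each member well counted. With 3 lungs a group, where an interval holds 0, changes up to its ends could not be told from none.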

Other observations

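Lungs of the same group differed in *Vangl1* more than in the other members at both ages of the *Vangl2* comparison. Over all 24 lungs, after the mean of the lung's own group was removed, *Vangl1* had Pearson's r of -0.752 with the lymphocyte, -0.721 with the neuroendocrine and 0.629 with the endothelial list, and of -0.642, -0.580 and 0.455 without the 2 lungs farthest from the median of each list, a check chosen after seeing the data. With the endothelial list *Fzd6* had 0.627 and *Prickle1* 0.582 (0.717 and 0.625 without the 2 lungs), whereas the 0.510 of *Prickle2* became -0.084. These are values over lungs that share tables and size factors, given with no test.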
